A study of Mus musculus with 8 samples.

Results

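The genes described here encode 2 connexins (Gja1, connexin 43, and Gjc1, connexin 45), the channel protein pannexin 1 (Panx1), 2 ATP-gated ion channels (P2rx4 and P2rx7) and 1 G-protein-coupled nucleotide receptor (P2ry2). They were chosen by gene symbol, each matched 1 row of the expression table, and together they are 6 of its 16369 genes. All libraries were made from MLO-Y4 cells, a mouse osteocyte line whose genotype is described with the samples as wild type. In 4 libraries, the ASO group, the non-coding RNA H19 had been targeted with an antisense oligonucleotide (ASO). The control group, also of 4 libraries, is called NC in the sample descriptions, letters that are not spelled out. Cells of both groups were grown in a fluid chamber slide and put under fluid shear stress of 2 Pa for 4 cycles. The labels do not say what the control cells received, and no library without flow was analysed here, so the comparison of ASO with control describes the oligonucleotide under flow and not the response of these genes to flow. The labels were not checked against the silenced RNA, since the level of H19 is not analysed here.

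Connexins assemble into hemichannels in the plasma membrane, and hemichannels of neighbouring cells dock to form gap junctions, through which ions and small molecules pass from cell to cell. In osteocytes, the cells embedded in bone that sense load, connexin 43 is the best known of these proteins, and its hemichannels and those of pannexin 1 are routes by which ATP and other small molecules leave a loaded cell. ATP outside the cell opens P2X channels and activates P2Y receptors, which raise calcium in the cytoplasm, until enzymes on the cell surface break the nucleotide down to adenosine.

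Libraries held 19501984 to 19914209 estimated reads, and any 2 libraries of the same group differed beyond counting error (chi-square per degree of freedom 4.87 to 19.1). Separate cultures are not mentioned in the labels, and the p-values therefore cover only the spread between these libraries, which may be technical. Levels are given in TPM, a measure of transcript abundance that is scaled to gene length and so allows genes to be set side by side. Differences are log2 fold changes of counts, ASO over control, from edgeR's quasi-likelihood test, with the standard error (SE) and a p-value adjusted over all 12227 genes tested. A gene was called changed at an adjusted p under 0.05. In bulk samples, fewer cells of a type and less RNA per cell cannot be told apart.

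None of the 6 genes was called changed by the ASO in edgeR, in DESeq2 or in limma-voom. All 6 passed the filter on low counts. Over all genes the same edgeR test called 14.6% (1790 of 12227), 869 of them higher (7.11%) and 921 lower (7.53%) in ASO libraries. The groups overlapped for 6 of 6 genes both in TPM and in CPM, the counts scaled to library depth, whereas they did not overlap in CPM for 19.1% of all genes tested. At an unadjusted p under 0.05 stood 1 of the 6, P2ry2, against 30.1% of all genes. For Gja1, P2rx4 and P2rx7 the 95% intervals of the fold change were narrow and lay within 0.91 and 1.16, and for the 3 genes with few reads they were wide.

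**Figure D1:**
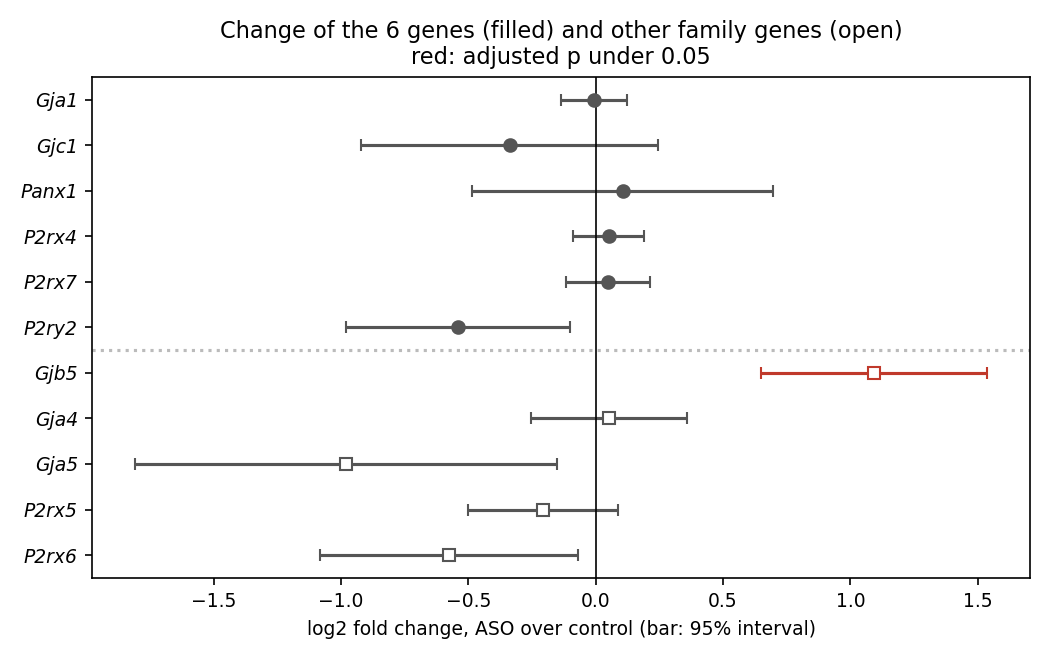
Log2 fold change, ASO over control, with 95% intervals from the edgeR fit over all genes, for the 6 genes (filled circles) and 5 other genes of their families (open squares); red marks an adjusted p under 0.05. The intervals of Gja1, P2rx4 and P2rx7 are short and include 0, those of Gjc1 and Panx1 are long and include 0, and that of P2ry2 runs from -0.98 to -0.10, although its adjusted p was 0.091. Gjb5 is the single gene in red.

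The genes lie on 5 chromosomes of the mouse genome (GRCm38.p6, RefSeq gene bounds). Gja1 is on the plus strand of chromosome 10 (56377300 to 56390419), Gjc1 on the minus strand of chromosome 11 (102799477 to 102819686) and Panx1 on the minus strand of chromosome 9 (15005785 to 15045478). P2rx7 (122643927 to 122692336) and P2rx4 (122707518 to 122729739) are neighbours on the plus strand of chromosome 5, 15181 bases apart, and P2ry2 is on the minus strand of chromosome 7 (100996568 to 101012053). The exons of 5 of the genes are shared with no other gene. P2rx7 shares 119 exonic bases with Mir8115, a microRNA gene annotated on the same strand.

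The 250 bases before the start were read from RefSeq's promoter table (GRCm38.p6) for the 5 genes it lists, all but Gjc1, taking the first promoter of each, and searched on both strands for the letters of 4 well-known elements. These were TGAGTCA, bound by AP-1 factors, GGGCGG, the GC box, TATAAA, the TATA box, and CACGTG, an E-box. TGAGTCA is held by 4.5% of the 32841 promoters of the table, GGGCGG by 32.7%, TATAAA by 12.4% and CACGTG by 6.0%. Both promoters that hold TGAGTCA, those of Gja1 and P2rx7, are given here 5′ to 3′, with matches to TGAGTCA and to GGGCGG or its reverse complement CCGCCC in capitals. They are chr10:56377050-56377299 and chr5:122643677-122643926, both on the plus strand.
Gja1: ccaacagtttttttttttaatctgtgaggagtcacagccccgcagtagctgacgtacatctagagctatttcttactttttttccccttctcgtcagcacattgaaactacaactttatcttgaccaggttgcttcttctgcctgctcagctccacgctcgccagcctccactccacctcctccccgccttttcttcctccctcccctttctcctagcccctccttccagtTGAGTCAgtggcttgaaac
P2rx7: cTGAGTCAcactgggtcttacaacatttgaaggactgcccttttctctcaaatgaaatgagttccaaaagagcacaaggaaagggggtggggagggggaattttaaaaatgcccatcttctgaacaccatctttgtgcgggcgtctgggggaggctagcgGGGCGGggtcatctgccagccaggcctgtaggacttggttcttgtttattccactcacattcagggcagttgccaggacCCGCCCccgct
In Gja1 the single TGAGTCA begins 19 bases before the start, and in P2rx7 it begins at the second base of the window, with GC boxes beginning 90 and 11 bases before the start. The first promoter of P2ry2 has GC boxes beginning 69 and 38 bases before the start, and those of Panx1 and P2rx4 hold none of the 4 elements in this window. P2rx7 and P2ry2 each have a second listed promoter. That of P2rx7 holds none of the 4 elements. That of P2ry2 holds 4 GC boxes, and CACGTG beginning 18 bases before its start. Its window overlaps that of the first P2ry2 promoter. The GC boxes beginning 124 and 93 bases before its start are the same sites as those given for the first. These matches are a description of letters, and no binding was measured.

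Gja1 was by far the most abundant of the 6. It stood at 318, 358, 297 and 315 TPM in ASO libraries 1 to 4, against 349, 311, 334 and 315 TPM in control libraries 1 to 4. The means were 322 ± 25.9 TPM with ASO and 328 ± 17.8 TPM in controls (SD, n = 4 each), and by its mean in controls it ranked 435 of 16369 genes. ASO replicate 2 was the highest library of all 8 and ASO replicate 3 the lowest, so that the control values lay inside the ASO range. The counts behind these levels were large, 46577 reads over the ASO libraries and 45940 over the controls, and the log2 fold change was -0.0064 ± 0.061 (SE; adjusted p = 0.96, edgeR). The 95% interval, in fold, ran from 0.91 to 1.09, and the sign of so small a value depended on the scaling.

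Gjc1, the other connexin, was far lower, with a Gja1 to Gjc1 ratio in TPM of 288 ± 100 with ASO and 221 ± 55.8 in controls (SD, n = 4 each). Its estimated reads were 34, 21, 35 and 17 in ASO libraries 1 to 4, and 40, 25, 43 and 25 in control libraries 1 to 4. In both groups the libraries numbered 1 and 3 were above those numbered 2 and 4, which was seen only once the values had been looked at and was not tested. In TPM the gene averaged 1.21 ± 0.366 with ASO and 1.57 ± 0.461 in controls (SD, n = 4 each). The log2 fold change was -0.34 ± 0.27 (SE; adjusted p = 0.43, edgeR), with a fold interval of 0.528 to 1.19, so that a fall to near the lower bound and no change could not be told apart at this depth.

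**Figure D2:**
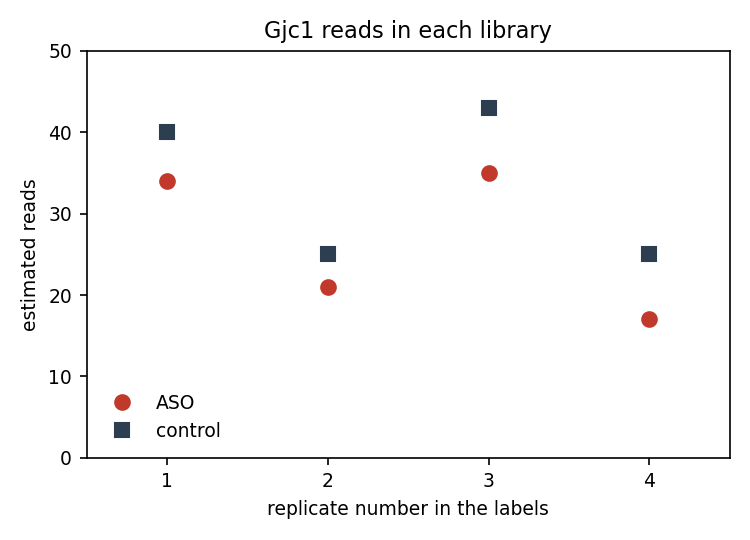
Estimated reads of Gjc1 by library number, ASO and control, with 4 libraries in each group. In both groups libraries 1 and 3 lie above libraries 2 and 4, and for each number the ASO library lies below the control library. The ranges of the groups overlap, and the numbers were not taken to pair the libraries.

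Panx1 had the lowest mean of the 6 in both groups. It had 22, 16, 20 and 10 reads in ASO libraries and 15, 14, 14 and 19 in control libraries, which is 0.74 ± 0.231 TPM with ASO and 0.695 ± 0.107 TPM in controls (SD, n = 4 each). The ASO libraries held both the highest and the lowest value. With 68 reads over the ASO group and 62 over the controls, the log2 fold change was 0.11 ± 0.27 (SE; adjusted p = 0.83, edgeR) and its fold interval was 0.715 to 1.62. Its sign turned without ASO replicate 1 (-0.045), and when ASO replicates 3 and 4 were set against control replicates 3 and 4 alone (-0.16).

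P2rx4, the channel gated by ATP at low micromolar levels, was the most abundant of the receptors. Its levels were 29.9, 33.2, 28.9 and 29.0 TPM in ASO libraries and 30.8, 31.4, 29.3 and 26.7 TPM in control libraries. ASO replicate 2 was again the highest, and the lowest of all was control replicate 4. The means were 30.2 ± 1.99 TPM with ASO and 29.6 ± 2.09 TPM in controls (SD, n = 4 each), from 3717 reads over the ASO libraries and 3523 over the controls. The log2 fold change was 0.05 ± 0.065 (SE; adjusted p = 0.64, edgeR), with a fold interval of 0.94 to 1.14.

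P2rx7, the channel that needs much higher ATP and is known in immune cells for starting interleukin-1 release, had 268, 277, 286 and 292 reads in ASO libraries and 273, 244, 268 and 281 in control libraries. In CPM it varied little, at 14.2 ± 0.427 with ASO and 13.7 ± 0.698 in controls (SD, n = 4 each), and the coefficient of variation was 3.01% with ASO and 5.10% in controls. The log2 fold change of the counts was 0.05 ± 0.077 (SE; adjusted p = 0.71, edgeR), with a fold interval of 0.922 to 1.16. In TPM the same libraries were spread more widely, at 5.61, 6.59, 5.27 and 6.47 with ASO and 6.87, 5.26, 5.84 and 6.51 in controls, and the ASO mean of 5.98 ± 0.646 lay below the control mean of 6.12 ± 0.715 (SD, n = 4 each). The direction of the small difference thus depended on the unit.

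The gene length that the deposited values imply was worked out as reads per FPKM, relative to the mean of the 8 libraries and to the median gene of each library. For P2rx7 it was 1.05, 0.941, 1.14 and 0.959 in ASO libraries and 0.896, 1.05, 1.01 and 0.959 in control libraries. Its highest value was 1.27 times its lowest, a ratio above that of 98.6% of the 10805 genes that passed a filter on reads and FPKM. The median ratio of those genes was 1.01. The ratio was 1.00 for Gja1 and for P2rx4. Gjc1, P2ry2 and Panx1 fell below the mean FPKM of 1 that the filter asked for, and their ratios were 1.17, 1.08 and 1.02. P2rx7 has 8 annotated transcripts (GENCODE M21), 5 of them coding, with lengths from 712 to 4936 bases. Their part in the spread of implied length was not tested.

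**Figure D3:**
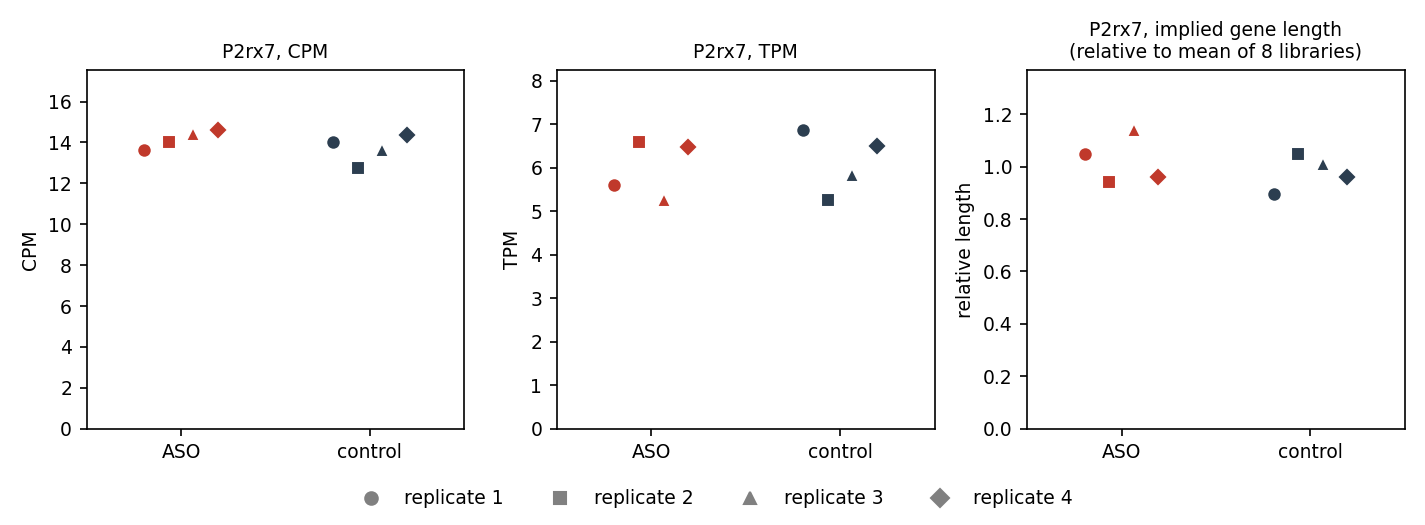
P2rx7 in each ASO and control library, in 3 panels with axes from 0: CPM, TPM and implied gene length relative to the mean of the 8 libraries. Marker shapes give the replicate number. The counts form a narrow band in both groups. TPM is high where implied length is low, as in ASO replicate 2 and control replicate 1, which follows from the definition of that length as reads per FPKM.

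P2ry2, a receptor for ATP and UTP that acts through Gq and phospholipase C, was the member with the largest difference. It had 34, 28, 27 and 20 reads in ASO libraries, against 31, 42, 43 and 40 in control libraries. Its levels were 1.02, 0.83, 0.75 and 0.60 TPM with ASO and 0.98, 1.25, 1.28 and 1.26 TPM in controls. The ASO libraries were the lower ones except that control replicate 1 lay within their range. The means were 0.80 ± 0.175 TPM with ASO and 1.19 ± 0.142 TPM in controls (SD, n = 4 each), and the log2 fold change was -0.54 ± 0.20 (SE), with a fold interval of 0.507 to 0.931. The adjusted p was 0.091 (edgeR; unadjusted 0.019), so the gene did not pass. ASO replicates 3 and 4 against control replicates 3 and 4 alone gave -0.84 ± 0.29 (SE; adjusted p = 0.043, edgeR), and replicates 1 and 2 alone gave -0.26 ± 0.29 (SE; adjusted p = 0.63, edgeR). These estimates differed by -0.58 ± 0.40 (SE; adjusted p = 0.86 for the interaction, edgeR), so a difference between these sets of libraries was not shown.

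**Figure D4:**
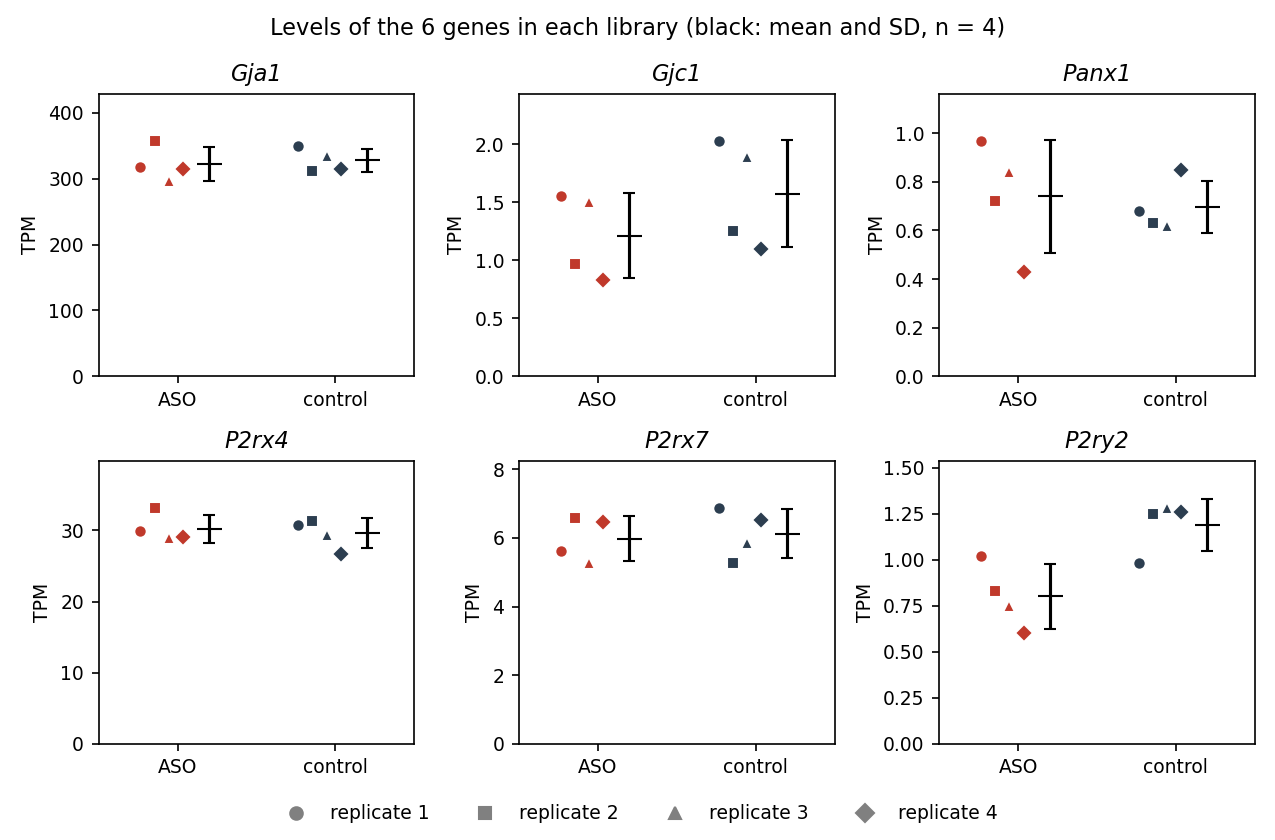
TPM of the 6 genes, a panel each with its own axis from 0, in ASO libraries (left) and control libraries (right). Marker shapes give the replicate number and black bars the mean and SD of 4 libraries. The groups overlap in every panel, in that of P2ry2 through control replicate 1 alone.

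The order of the levels was the same in both groups for the upper members. Gja1 was 10.6 times P2rx4 with ASO and 11.1 times in controls, and P2rx4 was 5.05 times P2rx7 with ASO and 4.83 times in controls, in ratios of group means. P2rx7 in turn was 4.94 times Gjc1 with ASO and 3.90 times in controls, and all 3 steps held in 8 of 8 libraries. Below them the ranges of neighbours overlapped, except those of P2ry2 and Panx1 in controls. Gjc1 was above P2ry2 in 4 of 4 ASO libraries and in 2 of 4 controls, with overlapping ranges in both groups. P2ry2 was above Panx1 in 3 of 4 ASO libraries, with overlapping ranges, and in 4 of 4 controls, where the ranges were apart. The P2ry2 to Panx1 ratio was 0.893 to 1.40 in ASO libraries and 1.44 to 2.06 in control libraries; it was chosen after the values were seen and carries no test. The P2rx4 to P2rx7 ratio was 5.08 ± 0.437 with ASO and 4.89 ± 0.805 in controls (SD, n = 4 each).

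Within their families, Gja1 and P2rx4 made up most of the signal. Gja1 held 76.9% to 81.8% of the summed TPM of the 18 connexin and pannexin genes of the table in ASO libraries, and 79.3% to 83.6% in control libraries. P2rx4 held 65.1% to 68.8% of the summed TPM of the 12 P2 receptor genes with ASO and 62.1% to 65.6% in controls, and P2rx7 held 12.2% to 15.3% with ASO and 10.9% to 15.1% in controls. Of the other genes of these families, Gja4 among the connexins and P2rx5 among the receptors were named after their values were seen. Gja4 stood at 13.6 ± 1.86 TPM with ASO and 13.4 ± 2.64 in controls (SD, n = 4 each). P2rx5 was at 6.08 ± 1.28 TPM with ASO and 7.12 ± 0.699 in controls, close to P2rx7.

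**Figure D5:**
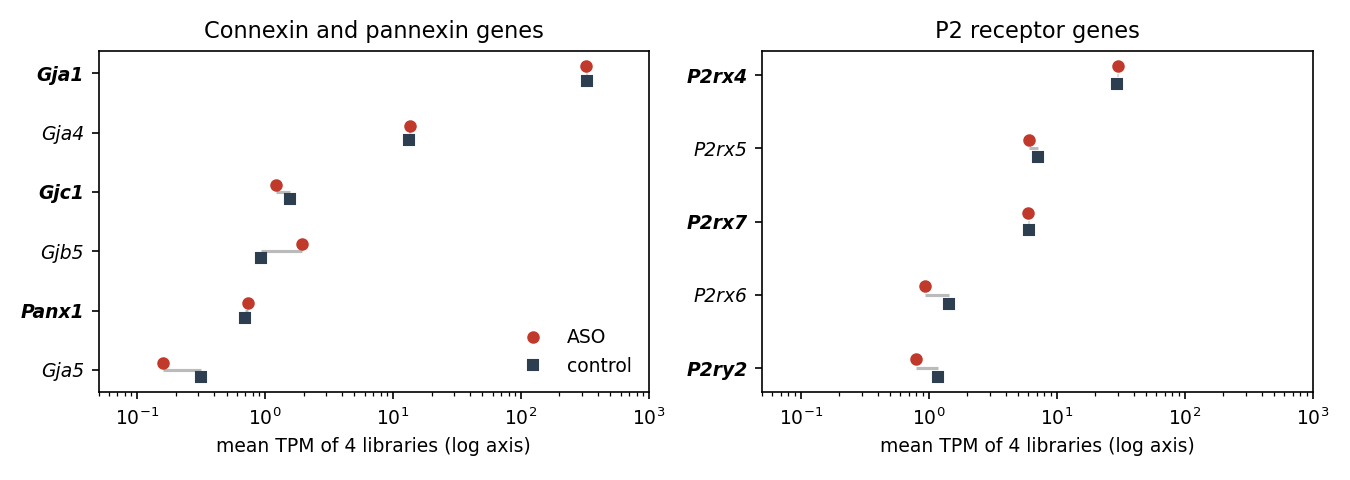
Mean TPM over 4 libraries on a log axis for the 6 genes (bold) and 5 other genes of their families, ASO (circles) above control (squares). Among the genes shown, Gja1 leads the connexins and P2rx4 the receptors, and P2rx5 lies close to P2rx7.

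Among the other connexins and pannexins, 1 of the 6 tested genes was called, against 14.6% of all genes tested. The median log2 fold change of the 6 was 0.045, against 0.0026 for all genes tested. The called gene was Gjb5, an epithelial connexin, which had 144 reads over the ASO libraries and 66 over the controls and stood at 1.96 ± 0.247 TPM with ASO and 0.935 ± 0.147 TPM in controls (SD, n = 4 each). Its log2 fold change was 1.09 ± 0.21 (SE; adjusted p = 0.0042, edgeR), and ASO and control replicates 1 and 2 alone gave 0.80 (adjusted p = 0.13). Gja5, a connexin below 1 TPM, had 23 reads over the ASO libraries and 45 over the controls and missed the threshold (adjusted p = 0.10, edgeR), which it passed without ASO replicate 2 (adjusted p = 0.044).

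Genes of other routes for ATP release were called in 1 of 7 tested, near the 14.6% called over all genes, with a median of -0.073. Lrrc8a, the obligatory subunit of the volume-regulated anion channel, fell to 10.9 ± 1.12 TPM with ASO, against 14.6 ± 1.42 TPM in controls (SD, n = 4 each). The log2 fold change was -0.40 ± 0.088 (SE) with an adjusted p of 0.0083 (edgeR), and replicates 1 and 2 alone gave -0.22 (adjusted p = 0.14).

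Of the other P2 and adenosine receptors, 2 of 5 tested were called, 1 higher and 1 lower, against 14.6% of all genes. Their median was -0.27. Adora2a, an adenosine receptor that raises cyclic AMP, was higher, at 2.95 ± 0.32 TPM with ASO and 2.21 ± 0.335 in controls (log2 0.46 ± 0.14 SE, adjusted p = 0.043, edgeR). Adora2b, its low-affinity relative, was lower, at 5.66 ± 0.404 TPM with ASO and 8.04 ± 1.87 in controls (log2 -0.49 ± 0.15 SE, adjusted p = 0.045, edgeR). Both calls were weak. With single libraries left out, the call of Adora2a ended in 7 of 8 fits (all but the one without control replicate 1; adjusted p up to 0.13) and that of Adora2b in 6 of 8 (all but those without ASO replicate 1 or control replicate 1; adjusted p up to 0.10). P2rx6, outside the called genes, was at 0.942 ± 0.324 TPM with ASO and 1.44 ± 0.304 in controls (log2 -0.58 ± 0.24 SE, adjusted p = 0.12, edgeR). It was called without ASO replicate 2 (-0.81, adjusted p = 0.038) and with replicates 3 and 4 against 1 and 2 as a term (-0.58, adjusted p = 0.045).

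Enzymes and transporters that break down extracellular nucleotides or handle adenosine were called in 3 of 13 tested, against 14.6% of all genes. Their median was 0.013. Enpp1, which makes pyrophosphate and AMP from ATP, fell to 24.5 ± 4.08 TPM with ASO, against 43.3 ± 2.63 in controls (log2 -0.80 ± 0.095 SE, adjusted p = 0.00019, edgeR). Its relative Enpp3 fell to 62.1 ± 13.4 TPM with ASO, against 103 ± 10.2 in controls (log2 -0.72 ± 0.12 SE, adjusted p = 0.0017, edgeR). Alpl, tissue-nonspecific alkaline phosphatase, rose to 46.0 ± 3.11 TPM with ASO, against 36.2 ± 1.97 in controls (log2 0.37 ± 0.069 SE, adjusted p = 0.0039, edgeR), with an adjusted p of 0.079 in replicates 1 and 2 alone.

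Proteins that bind connexins or govern their trafficking were called in 2 of 13 tested, both lower, near the 14.6% called over all genes. Their median was -0.11. Tjp1, the scaffold ZO-1 at the edge of connexin 43 junctions, was at 27.6 ± 2.08 TPM with ASO and 33.9 ± 2.83 in controls (log2 -0.28 ± 0.067 SE, adjusted p = 0.015, edgeR). Ctnnb1, beta-catenin, was at 151 ± 3.77 TPM with ASO and 176 ± 4.74 in controls (log2 -0.21 ± 0.051 SE, adjusted p = 0.017, edgeR). Without control replicate 2 both calls ended, at adjusted p of 0.050 and 0.053, the first above the threshold before rounding, and Ctnnb1 also missed it in replicates 1 and 2 alone (adjusted p = 0.059) and in 3 and 4 alone (0.086).

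Calcium signalling genes downstream of P2 receptors were called in 3 of 20 tested, near the 14.6% called over all genes, with a median of -0.097. Prkca, protein kinase C alpha, rose to 30.3 ± 1.86 TPM with ASO, against 25.6 ± 1.35 in controls (log2 0.26 ± 0.058 SE, adjusted p = 0.0087, edgeR). Itpr1, an inositol trisphosphate receptor of the endoplasmic reticulum, fell to 4.56 ± 0.433 TPM with ASO, against 5.85 ± 0.788 in controls (log2 -0.34 ± 0.09 SE, adjusted p = 0.022, edgeR), and its call ended in 4 of 8 fits with a library left out (without ASO replicate 3 or 4, or control replicate 1 or 2). Atp2b1, a plasma membrane calcium pump, was at 33.2 ± 0.986 TPM with ASO and 37.7 ± 0.455 in controls (log2 -0.16 ± 0.05 SE, adjusted p = 0.042, edgeR), and its call ended in all 8 such fits. The inflammasome genes linked to P2X7 were called in 0 of 5 tested, against the same share of all genes (median -0.064). The smallest p-values were those of Gsdmd, the pore-forming gasdermin D, at -0.11 ± 0.059 (SE; adjusted p = 0.24, edgeR), and of Il18, at -0.12 ± 0.08 (SE; adjusted p = 0.34, edgeR). Il1b had 1 read over the ASO libraries and 0 over the controls.

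For each of the 6 genes, the 2 protein-coding genes whose log2 CPM lay closest over the 8 libraries were found by the root mean square difference after each gene's own mean was subtracted. The smallest of many distances is bound to lie below the median, so the medians below only give the scale. For genes that varied little, a small distance means only that both were nearly flat. Gas2 (0.016) and Adam9 (0.033) were nearest to Gja1, whose median distance to all genes was 0.14. Trim25 (0.025) and Atp13a2 (0.031) were nearest to P2rx4 (median 0.15), and Exoc7 (0.015) and Ccar1 (0.024) to P2rx7 (median 0.14). The genes with few reads had more distant neighbours. These were Hhex (0.20) and Serpinb9b (0.21) for Gjc1 (median 0.44), Niban3 (0.15) and Tns4 (0.16) for Panx1 (median 0.33), and Sema6c (0.11) and Ndufa4l2 (0.11) for P2ry2 (median 0.37). Both neighbours of P2ry2 were called lower with ASO, Sema6c at log2 -0.48 (adjusted p = 0.0056, edgeR) and Ndufa4l2 at -0.65 (adjusted p = 0.0044, edgeR). None of the other neighbours was called. The difference between the groups is part of the distance, so neighbours share it by selection. Their calls, or the lack of them, are therefore no evidence on the 6 genes.

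Marker genes were read beside these levels. The osteocyte markers Pdpn, Cd44 and Capg were abundant, at 195 ± 7.58, 142 ± 5.33 and 629 ± 24.4 TPM with ASO and 170 ± 12.1, 126 ± 6.23 and 572 ± 22.4 TPM in controls (SD, n = 4 each), and all 3 were called higher. Dstn, abundant too but well below Capg, was lower, at 139 ± 3.29 TPM with ASO and 167 ± 8.55 in controls (log2 -0.25 ± 0.056 SE, adjusted p = 0.011, edgeR; 0.10 in replicates 1 and 2 alone). Dmp1, also lower, was at 0.41 ± 0.212 TPM with ASO and 1.14 ± 0.381 in controls. The mature markers Sost (3 reads over the ASO libraries, 1 over the controls) and Mepe (1 read in each group) were close to 0. Phex was lower with ASO but not called (log2 -0.178 ± 0.12 SE, adjusted p = 0.35, edgeR). So was Irx5 (-0.193 ± 0.069 SE, adjusted p = 0.076, edgeR), in groups that did not overlap in CPM. The median over the tested osteocyte markers was -0.18. Of 7 osteocyte markers tested, 3 were called higher and 2 lower with ASO, against 14.6% of all genes called in either direction. That share is the background for the other marker lists too. The calls of Pdpn, Cd44 and Capg ended in 5, 6 and 8 of 8 fits with a library left out, and those of Dmp1 and Dstn in 0. Macrophage and osteoclast markers, 9 of 12 in the table, summed to 119 to 148.4 TPM in ASO libraries and 112.1 to 159.8 TPM in control libraries, most of it Ctsk. Of 6 tested, Cd68 was higher (log2 1.54 ± 0.13 SE, adjusted p = 1.7e-05, edgeR) and Ocstamp lower (-1.02 ± 0.27 SE, adjusted p = 0.025, edgeR). The call of Ocstamp ended in 4 of 8 fits with a library left out (without ASO replicate 2 or 3, or control replicate 1 or 2), at an adjusted p of 0.078 at most, and in replicates 3 and 4 alone (-0.65, adjusted p = 0.25). Csf1r, the receptor for macrophage colony-stimulating factor, had 221 reads with ASO and 135 in controls, in groups that did not overlap in CPM, and stood just above the threshold at 0.68 ± 0.22 (SE; adjusted p = 0.052, edgeR). It passed in 9 of 21 alternatives, among them DESeq2 (adjusted p = 0.042) and replicates 3 and 4 against 1 and 2 as a term (adjusted p = 0.011). The remaining tested markers of this list were lower but not called. They were Acp5 (log2 -0.63 ± 0.30 SE, adjusted p = 0.17, edgeR), Lyz2 (-0.27 ± 0.22 SE, adjusted p = 0.43, edgeR) and Ctsk (-0.23 ± 0.15 SE, adjusted p = 0.31, edgeR). The median over the tested markers of this list was -0.25. Ptprc, which marks leukocytes, had 30 reads with ASO and 28 in controls. Itgam had 10 reads with ASO and 1 in controls, and Aif1 had 3 with ASO and 2 in controls. Endothelial markers, of which 3 of 6 were in the table, summed to 0.28 to 0.54 TPM with ASO and 0.16 to 0.34 TPM in controls. Chondrocyte markers, 5 of 6 in the table, summed to 63.72 to 85.52 TPM with ASO and 88.02 to 128.8 TPM in controls, nearly all of it Sox9, and both that were tested, Sox9 and Col2a1, were lower with ASO (the call of Sox9 ended without control replicate 4, adjusted p = 0.054). The part of these markers in the levels of the 6 genes was not tested.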

How the data were processed

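Libraries were 4 of ASO and 4 of control MLO-Y4 cells, grouped and numbered by their titles. HISAT, Bowtie2, GRCm38.p6 and mm10 are named, with no role, in the submitters' processing notes. Counting tool, annotation and strandedness: not given in the sources used here; sense and antisense reads of a locus are thus not separated. The authors deposited 1 table with estimated counts, FPKM and TPM per library, per the file headers. FPKM and TPM are scaled to gene length and depth by the authors, per the file headers. Between 6.01% and 6.60% of a library's deposited counts were not whole (tolerance 0), and these were rounded; those of the 6 genes were whole in all 8 libraries. For a count of 0 the upper limit is 0.154 CPM (3 reads; counting error only). Gene identifiers matched RefSeq (GRCm38.p6) for 16321 of 16369.

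After filterByExpr and TMM scaling, edgeR 4.0.16 was run (R 4.3.3, quasi-likelihood test, group as the single term, Benjamini-Hochberg adjustment at 0.05). SEs were derived from the F statistic. The procedure was tested on simulated data. Promoters were scanned over 250 bases. The 6 genes, the gene lists and their tests were chosen with earlier results of these data known. The named genes were the 6, every called gene of a list (at most 6; where none was called, the 2 with the smallest p) and the 2 nearest patterns of each gene; Gja4, Gja5, P2rx5, P2rx6, Il1b and the markers that were not called were named after their values were seen. Some other family genes count in the sums and list counts and are not reported here. Nearest patterns were sought among tested protein-coding genes with a mean of at least 1 CPM and no predicted, clone or pseudogene name (log2 CPM, prior count 2). Alternatives tried: DESeq2 1.42.0, its size factors, other scalings and filters, limma 3.58.1 on counts, TPM or FPKM, a replicate block, single libraries left out, replicates 1 and 2 or 3 and 4 alone, that division as a term, and an adjusted p under 0.01. The interaction of group and division was added after the data were seen.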

Additional observations from a re-analysis of the deposited data

Results flagged for a closer look

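Each group of 4 libraries was checked for a library that stood apart, for the 6 genes and the tested list genes named in the report. Acp5, Lyz2, Ctsk, Phex and Irx5 were not part of this check. Of 68 such groups 4 had one, and chance flags about 5%. P2rx4 was at 49.8 CPM in ASO replicate 2, against 45.5 to 46.1 CPM in the other ASO libraries. Atp2b1 was at 137 CPM in ASO replicate 4, against 140 CPM in each of the others after rounding. Sox9 was at 160 CPM in ASO replicate 4, against 200 to 208 CPM in the others. Csf1r, a macrophage receptor gene, was at 1.32 CPM in control replicate 3, against 1.83 to 1.90 CPM in the other controls.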

How the results depend on the processing

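The number of the 6 genes called was 0 in every alternative but 1. ASO replicates 3 and 4 against control replicates 3 and 4 alone called 1 gene, P2ry2, at -0.84. The count over all genes moved from 1790 to 1167 with limma on log2(TPM + 1) without a filter, to 3136 with replicates 3 and 4 against 1 and 2 as a term, to 1036 with replicates 1 and 2 alone and to 702 at an adjusted p under 0.01, and ranged from 1105 to 1940 with single libraries left out (1191 without ASO replicate 3, 1129 without ASO replicate 4, 1105 without control replicate 2). The cause was not tested. The sign of Gja1 turned with upper-quartile scaling (0.002), library-size scaling (0.011), log2(FPKM + 1) (0.011) and replicates 1 and 2 alone (0.03), and with single libraries left out it ran from -0.045 to 0.021. That of P2rx7 turned on log2(TPM + 1) (-0.027, and -0.027 without a filter) and log2(TPM + 0.1) (-0.031). That of Panx1 turned with replicates 3 and 4 alone (-0.16), and ran from -0.045 to 0.29 with libraries left out. P2ry2 ran from -0.67 to -0.42 with libraries left out, at adjusted p from 0.054 to 0.23, Gjc1 from -0.49 to -0.17, P2rx4 from 0.0034 to 0.082 and P2rx7 from 0.015 to 0.071. Gja4 turned with replicates 3 and 4 alone (-0.034) and without ASO replicate 3 (-0.062), control replicate 1 (-0.028) or control replicate 2 (-0.031).

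Same-numbered libraries of the 2 groups correlated at 0.049, 0.14, 0.21 and 0.13 in their deviations from the group means, so the numbers were not taken to pair them. With a replicate block the test called 2575 genes (21.1%) and 0 of the 6. Across the groups, the correlations within replicates 1 and 2 and within 3 and 4 were all positive (0.049 to 0.25) and all 8 between these sets were negative (-0.27 to -0.082), a division that both groups share. Deviations from a group mean cancel within the group, so the negative values follow in part from the positive ones. In 3 of 4 ASO libraries the best match had another number (ASO 1 with control 2 at 0.24, ASO 2 with control 1 at 0.22, ASO 4 with control 3 at 0.25). A replicate block brought in Csf1r (adjusted p = 0.02).

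Depth limits Gjc1, Panx1 and P2ry2, which had 10 to 43 reads in a library. A filter of at least 5 CPM in 4 libraries left 3 of the 6 genes, log2 TPM (mean 1 or more) left 4 and log2(FPKM + 1) left 3.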
